A study of Mus musculus with 16 samples.

Results

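The change in wild-type mouse skin between 1 and 7 days of 4-hydroxytamoxifen was measured by comparing 2 day 7 arrays with 3 day 1 arrays, 5 of the 16 arrays of the series, chosen by the genotype and time in their titles. All 22690 probe sets of the Affymetrix Mouse 430 A array entered, and 9058 genes could be tested. RNA came from total skin of wild-type C57BL/6 mice. These animals carried no transgene, so the drug had no fusion protein to act on. The other arrays came from untreated wild-type skin (day 0, 3 arrays) and from K14deltaNB-cateninER line D2 skin at days 0, 1 and 7 (2, 3 and 3 arrays), in which the keratin 14 promoter drives a truncated beta-catenin fused to an oestrogen receptor domain that 4-hydroxytamoxifen switches on in basal keratinocytes. The labels describe both day 7 arrays and day 1 replicate 3 as 1 mouse each and the rest as mice, so pooling of animals cannot be told from them. They give no age, sex, hair cycle stage or hour of collection, and no group received vehicle alone, so drug, handling and elapsed time cannot be told apart.

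Mouse skin is a layered tissue of epidermis, hair follicles, dermis, fat and a thin sheet of striated muscle. Basal keratinocytes divide, and the cells above them make keratins and cornified envelope proteins that form the barrier. Injured or irritated epidermis switches on a separate set, among them keratins 6, 16 and 17 and the small proline-rich proteins. Most skin cells also run a circadian clock, in which CLOCK and BMAL1 activate genes through E-boxes, PER and CRY proteins repress them, and the output factors DBP, TEF and HLF act at D-boxes. 4-Hydroxytamoxifen is an active tamoxifen metabolite that binds oestrogen receptors.

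In limma, 152 of 9058 genes rose and 133 fell at day 7 against day 1 at an adjusted p under 0.05, which was 1.68% and 1.47% of the genes tested, or 3.15% in both directions. Of these, 39 rose and 25 fell by at least 2-fold on the scale of log2(intensity + 32). The day 7 and day 1 arrays did not overlap for any of these 285 genes, as was the case for 39.2% of all genes, and the median difference over all genes was -0.01. At an unadjusted p under 0.05, 9.11% of all genes were higher and 9.66% lower, 18.8% together. A principal component analysis of the 8 wild-type arrays set day 0 apart on the first component (45.2% of the variance), at -24.3 to -16.8, with day 7 at 8.3 and 8.99 and day 1 at 10.7 to 18.6. The second component (21.3%) separated day 7, at 21.1 and 13.3, from day 1, at -12.4 to -6.7. Replicates correlated across genes, which are not independent, at r = 0.985 at day 7 and 0.979 to 0.985 at day 1. Gapdh probe sets gave a 3' to 5' signal ratio of 0.913 and 0.949 at day 7 and 0.959 to 1 at day 1, so this sign of RNA quality moved slightly with the day, and its part in the results was not tested. Values below are scaled intensities of single arrays, listed by replicate number, and an intensity under about 101 to 132 lay among the dimmest 40% of probe sets of its array. The calls depended on the arrays: without day 7 replicate 1, 35 genes passed, 30 of them among the 285, without day 7 replicate 2, 135 passed, and without day 1 replicate 1, 123. All 285 kept their direction with each of the 5 arrays left out in turn, and 25 kept their call all 5 times. The kept direction of the 285 was fixed beforehand, because their groups did not overlap. With no further scaling of the deposited intensities 74 genes passed, at a median over all genes of -0.11, and with only the 2 groups in the fit 181 passed.

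**Figure D1:**
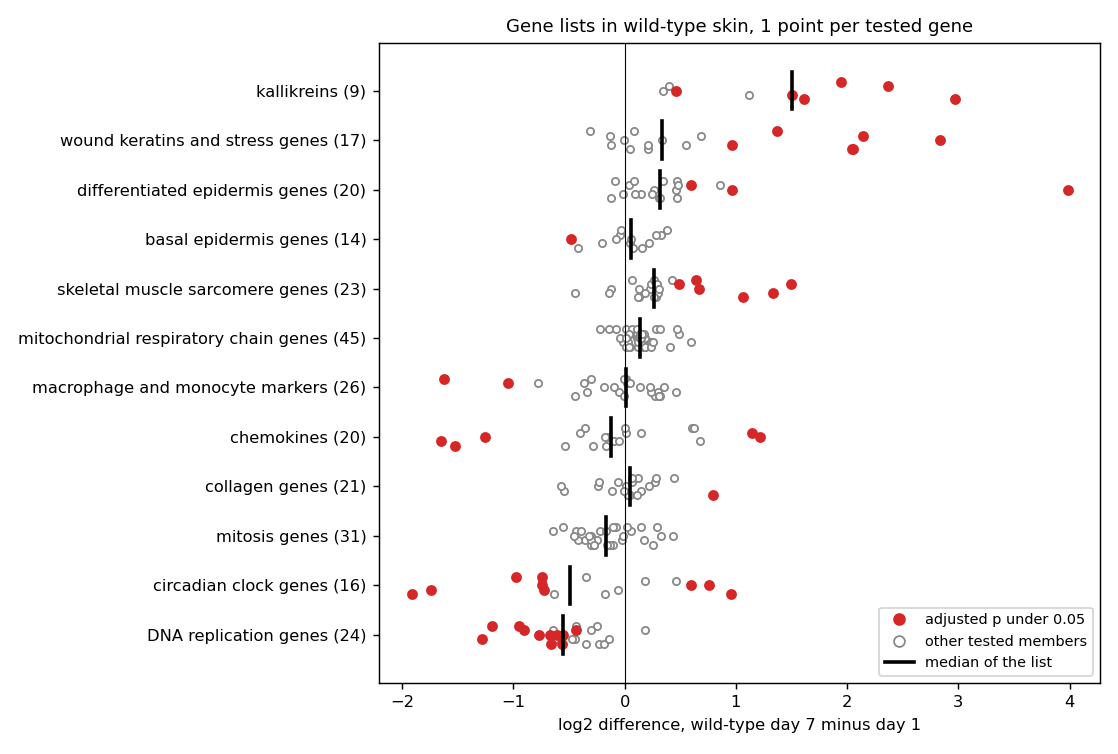
Log2 differences in wild-type skin, day 7 minus day 1 (horizontal axis), for the tested genes of 12 lists, with the number tested in brackets. Filled red points passed an adjusted p under 0.05 and black bars mark the list medians. The kallikreins lie furthest to the right, with a median of 1.51, and the DNA replication genes furthest to the left, with a median of -0.56.

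Some epidermal genes of the upper layers and of stressed epidermis rose. They were 3 of 20 tested genes of differentiated epidermis and 6 of 17 wound keratins and stress genes. Krt2, a keratin of the upper living layers of the epidermis, had the largest difference of the 285 genes. Its intensity was 1975 and 1328 at day 7 against 74.5, 98.6 and 50.2 at day 1, and 51.2, 57.6 and 45.2 at day 0. Both day 7 arrays thus stood far above every earlier array, and the log2 difference was 3.98 ± 0.32 (SE, adjusted p = 1.22e-05). Sprr1b, a small proline-rich precursor of the cornified envelope, stood at 530.4 and 446.5 at day 7 against 95.8, 32.2 and 14.8 at day 1. Its groups did not overlap, and the log2 difference was 2.84 ± 0.39 (SE, adjusted p = 0.00106). Krt16, a keratin of injured and hyperproliferative epidermis, reached 583.8 and 447 at day 7 against 126.8, 91 and 83.7 at day 1 (2.05 ± 0.23 (SE, adjusted p = 0.000181)). Its partner keratin Krt6b measured 415.9 and 224.2 at day 7 against 89.9, 53.5 and 11.5 at day 1 (2.14 ± 0.40 (SE, adjusted p = 0.0102)), the day 1 values lying in the dim range. The closely related Krt6a, in contrast, was bright throughout, at 2048 and 1700 at day 7 against 1448, 1775 and 2567 at day 1, with overlapping groups and a log2 difference of -0.01 ± 0.22 (SE, adjusted p = 0.992). Stfa3, a stefin that inhibits cysteine proteases, stood at 889.8 and 910.5 at day 7 against 218.3, 229.8 and 145.8 at day 1 (2.04 ± 0.36 (SE, adjusted p = 0.00713)).

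Of the 17 tested genes among 23 wound keratins and stress genes, 6 rose and 0 fell, which is 35.3% called against 3.15% of all genes, at a median difference of 0.33. Beside Sprr1b, Krt6b, Krt16 and Stfa3 these were the small proline-rich genes Sprr2h (1.37) and Sprr1a (0.97), the brightest of them at 6475 and 5560 at day 7 against 2077, 3900 and 3505 at day 1. Sprr2h and other Sprr genes are near copies of each other, so that its probe set may read more than 1 of them. Il1b, the cytokine interleukin 1 beta, did not pass at -0.12 ± 0.15 (SE, adjusted p = 0.72), nor did Hbegf, a growth factor of wound keratinocytes, at 0.05. Against day 0, 5 of the 17 rose and 0 fell at day 7, beside 5.50% and 5.95% of all genes, with a median of 0.39. The summed intensity of the 17 was 15398 and 13495 at day 7 against 7077, 9452 and 9985 at day 1. At day 0 it was 12173, 13602 and 11379, so by this sum the day 1 arrays were the low ones. Among 20 tested genes of differentiated epidermis 3 rose, Krt2, Sprr1a and the calmodulin-like Calml3 (0.60 ± 0.12 (SE, adjusted p = 0.0114)), and 0 fell, which is 15% called against 3.15% of all genes. The unadjusted p was under 0.05 with a positive difference for 13 of these 20 (against 9.11% of all genes), and the list median was 0.31. Their summed intensity was 96449 and 87482 at day 7 against 72139, 77419 and 81674 at day 1, with 91787, 88256 and 86798 at day 0, so the day 1 arrays were the low ones. The major suprabasal keratins Krt1 (0.32, adjusted p = 0.0968) and Krt10 (0.25, adjusted p = 0.227), the cornified envelope protein gene Lor (0.09, adjusted p = 0.566) and the basal keratins Krt14 (0.32, adjusted p = 0.0633) and Krt5 (0.16, adjusted p = 0.433) did not pass. In bulk skin, more cells of a type and more RNA per cell cannot be told apart.

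Other genes with large rises included Tnfrsf12a, the receptor of the cytokine TWEAK, at 514.6 and 247.6 at day 7 against 78.3, 55.6 and 55.4 at day 1 (2.05 ± 0.25 (SE, adjusted p = 0.000454)), with another probe set at 0.95 (adjusted p = 0.0583). Lce3c, a late cornified envelope gene, stood at 177 and 179.1 at day 7 against 28.4, 32.8 and 30.7 at day 1 (1.75 ± 0.24 (SE, adjusted p = 0.00108)), and Mmp12, the macrophage metalloelastase, at 127.6 and 109.3 at day 7 against 3.1, 35.7 and 8.5 at day 1 (1.71 ± 0.33 (SE, adjusted p = 0.0114)). Chosen after their values were seen, the epithelial alarm cytokines Tslp and Il33 also rose, by 1.12 ± 0.28 (SE, adjusted p = 0.0383) and by 0.62 ± 0.14 (SE, adjusted p = 0.0295). Tslp stood at 157.5 and 275.5 at day 7 against 89.5, 88.3 and 61.6 at day 1, and Il33 at 586.6 and 590.6 at day 7 against 352.1, 439.3 and 331.9 at day 1. With each of the 5 arrays left out in turn, Krt2, Sprr1b, Krt16, Tnfrsf12a and Lce3c stayed past the threshold all 5 times. The call was lost without day 7 replicate 1 for Krt6b, Stfa3, Sprr2h, Sprr1a, Calml3, Mmp12, Tslp and Il33 (adjusted p = 0.088 to 0.216, log2 differences 0.60 to 2.06) and without day 7 replicate 2 for Sprr2h, Sprr1a, Calml3, Mmp12, Tslp and Il33 (adjusted p = 0.054 to 0.257, log2 differences 0.60 to 1.80). It was also lost without day 1 replicate 1 for Tslp and Il33 (adjusted p = 0.0813 to 0.1, log2 differences 0.58 to 1.19), without day 1 replicate 2 for Sprr2h and Tslp (adjusted p = 0.0574 to 0.0623, log2 differences 1.18 to 1.40) and without day 1 replicate 3 for Sprr2h, Tslp and Il33 (adjusted p = 0.0891 to 0.105, log2 differences 0.54 to 1.09). Without further scaling of the deposited intensities, Sprr1a, Calml3, Tslp and Il33 missed the threshold (adjusted p = 0.0738 to 0.608). Among the wound keratins and stress genes, 2 passed without day 7 replicate 1 and 4 to 6 without each other array.

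Kallikreins, serine proteases of glands and of shedding epidermis, were among the genes that rose. Of 24 listed genes 15 were on the array and 9 were tested, and 6 of the 9 rose (66.7%, against 3.15% of all genes) with a median difference of 1.51. None of the 9 had overlapping groups, as was true of 39.2% of all genes. Klk1, which encodes tissue kallikrein, had a level that built up over the whole course, at 2, 3 and 40.9 at day 0, 1633, 1763 and 1571 at day 1 and 5552 and 4755 at day 7. From day 1 to day 7 its log2 difference was 1.62 ± 0.29 (SE, adjusted p = 0.00896). Its 2 other probe sets gave 1.71 ± 0.23 (SE, adjusted p = 0.00122) and 1.13 ± 0.30 (SE, adjusted p = 0.0663), the second of which did not pass. Klk1b27, a glandular member, was at 427.2 and 553.2 at day 7 against 25.6, 53 and 27.2 at day 1 (2.97 ± 0.37 (SE, adjusted p = 0.000465)), with day 0 arrays at 3.8, 3.5 and 3.2. Klk1b21 measured 1251 and 1455 at day 7 against 187.8, 362.3 and 187.9 at day 1 (2.37 ± 0.36 (SE, adjusted p = 0.00266)), and Klk1b24 812.1 and 865.2 at day 7 against 209, 223.8 and 153.8 at day 1 (1.95 ± 0.24 (SE, adjusted p = 0.000441)). In all 4 glandular genes each later day lay above the earlier one on every array. The sequences of Klk1 and the Klk1b genes are near copies, so that their probe sets may share transcripts and cannot be counted as independent genes.

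Klk6 and Klk11 are kallikreins of the epidermis. Klk6 stood at 835.4 and 616.4 at day 7 against 241.4, 269.2 and 190.4 at day 1 (1.51 ± 0.24 (SE, adjusted p = 0.00345)), and its day 0 arrays, at 274.9, 304 and 238.6, overlapped those of day 1. Klk11 rose by 0.46 ± 0.10 (SE, adjusted p = 0.0242), at 753.5 and 737.6 at day 7 against 475.8, 540 and 591.8 at day 1, with day 0 at 747, 649.7 and 734. Klk7, a protease of corneocyte shedding, did not pass (0.34 ± 0.12 (SE, adjusted p = 0.116)), and neither did Klk8 (0.40 ± 0.12 (SE, adjusted p = 0.0704)) or Klk10 (1.12 ± 0.32 (SE, adjusted p = 0.0688)), although their groups did not overlap. With each of the 5 arrays left out in turn, Klk1b27, Klk1b21 and Klk1b24 stayed past the threshold all 5 times. Calls were lost without day 7 replicate 1 for Klk1, Klk6 and Klk11 (adjusted p = 0.093 to 0.216, log2 differences 0.44 to 1.51) and without day 7 replicate 2 for Klk11 (adjusted p = 0.0918, log2 difference 0.47). Further losses came without day 1 replicate 1 for Klk11 (adjusted p = 0.0976, log2 difference 0.38) and without day 1 replicate 2 for Klk11 (adjusted p = 0.0524, log2 difference 0.47). On the deposited intensities without scaling, Klk11 missed the threshold (adjusted p = 0.797). Of the 9 genes, 3 passed without day 7 replicate 1.

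**Figure D2:**
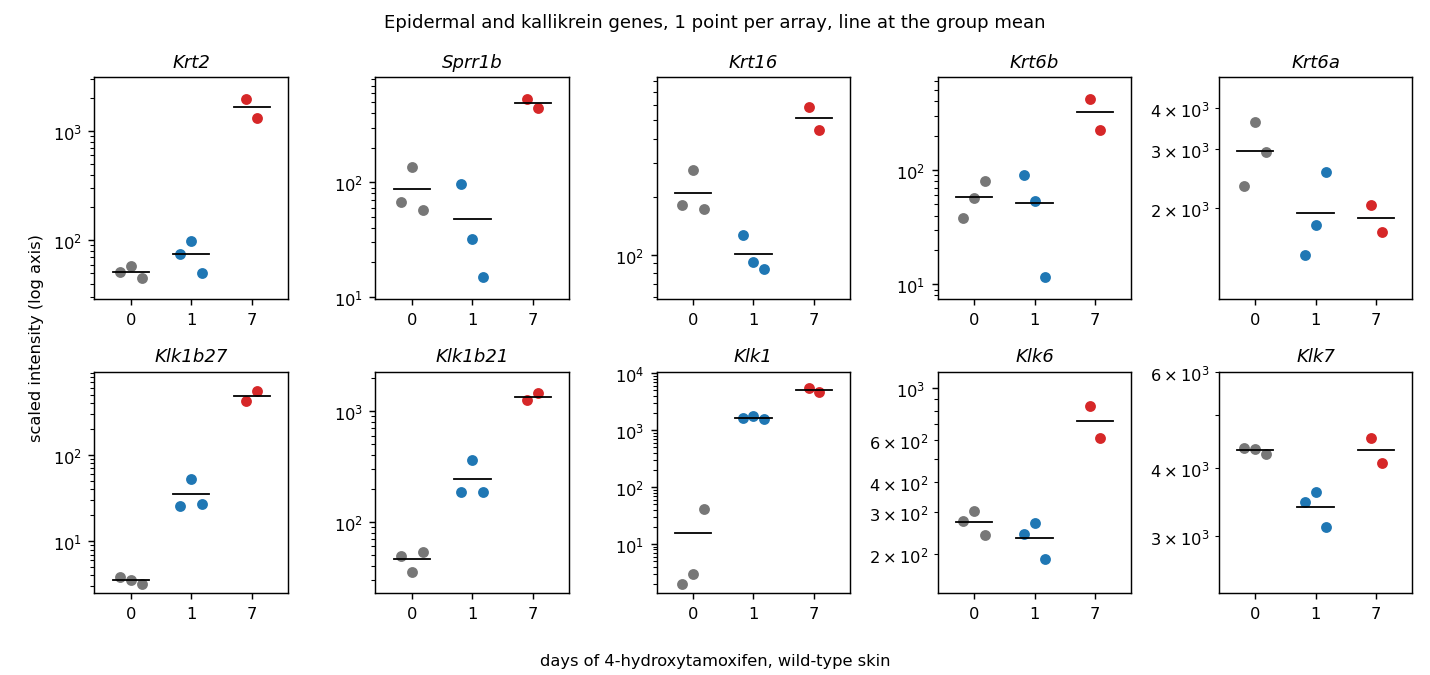
Scaled intensity (log axis) of 10 epidermal and kallikrein genes in wild-type skin at 0, 1 and 7 days of 4-hydroxytamoxifen, 1 point per array (n = 3, 3 and 2) and a line at each group mean. Krt2 stands above 1000 on both day 7 arrays and below 100 on all others, Klk1 climbs from day to day, and Krt6a overlaps between days 1 and 7.

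Of the striated muscle genes, 6 of 23 tested sarcomere genes rose at day 7, and 0 of them passed without day 7 replicate 1. Myoglobin, the oxygen store of oxidative fibres, encoded by Mb, stood at 8449 and 6158 at day 7 against 2038, 2677 and 3015 at day 1, so that the groups lay well apart (1.49 ± 0.28 (SE, adjusted p = 0.0106)). Actn2, alpha-actinin of the Z disc, measured 4163 and 2964 at day 7 against 1315, 1454 and 1356 at day 1 (1.34 ± 0.26 (SE, adjusted p = 0.0111)). Myh2, the myosin heavy chain of fast oxidative fibres, was at 4013 and 3213 at day 7 against 1354, 1734 and 2099 at day 1 (1.06 ± 0.22 (SE, adjusted p = 0.0187)). Hspb7, a small heat shock protein of muscle, stood at 1786 and 1392 at day 7 against 337.5, 361.8 and 288.2 at day 1 (2.16 ± 0.37 (SE, adjusted p = 0.00578)), and Csrp3, the muscle LIM protein, at 2732 and 1967 at day 7 against 537.7, 770.7 and 734.6 at day 1 (1.74 ± 0.39 (SE, adjusted p = 0.0257)). Ankrd2, a stretch-responsive ankyrin repeat protein of slow muscle, reached 453.3 and 281.9 at day 7 against 106.9, 107.2 and 57.8 at day 1 (1.70 ± 0.34 (SE, adjusted p = 0.0143)). Cryab, the alpha B crystallin of oxidative muscle, was at 4472 and 3666 at day 7 against 1715, 1889 and 1611 at day 1 (1.21 ± 0.20 (SE, adjusted p = 0.00578)). Of 30 listed sarcomere genes 23 were tested, and 6 rose and 0 fell (26.1%, against 3.15% of all genes). These 6 were Mb, Actn2, Myh2, Ldb3 (0.67), Myh1 (0.64) and Mylpf (0.49). Hspb7, Csrp3, Ankrd2 and Cryab are not counted in this list. Other probe sets that did not pass gave 0.71 for Cryab, 0.40 for Ldb3 and 0.13 for Myh1 (adjusted p = 0.0714, 0.32 and 0.767). The other Hspb7 probe sets gave 1.92, which passed, and 1.89, which did not (adjusted p = 0.00189 and 0.0776).

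Other well-known sarcomere genes did not pass. Acta1, skeletal actin, differed by 0.28 ± 0.12 (SE, adjusted p = 0.233), Ckm, muscle creatine kinase, by 0.13 ± 0.13 (SE, adjusted p = 0.658), and Myh4, the myosin of fast glycolytic fibres, by -0.45 ± 0.47 (SE, adjusted p = 0.668). Myh4 had 4141 and 8152 at day 7 against 7627, 7223 and 9050 at day 1, so the 2 day 7 arrays disagreed. The list median was 0.26, and the summed intensity of its 23 genes was 178150 and 154549 at day 7 against 126650, 133657 and 148202 at day 1, with 174522, 163896 and 150190 at day 0. No sarcomere gene rose against day 0, and 2 fell, with a median of 0.07 (5.50% of all genes rose and 5.95% fell). How much muscle each skin sample held was not recorded in the labels, and its part in these differences was not tested. The mitochondrial respiratory chain genes, abundant in oxidative muscle, gave 0 calls of 45 in limma, at a median of 0.13. At an unadjusted p under 0.05, 11 were higher and 0 lower, beside 9.11% and 9.66% of all genes. The threshold was missed without day 7 replicate 1 for Mb, Actn2, Myh2, Hspb7, Csrp3, Ankrd2, Cryab, Ldb3, Myh1 and Mylpf (adjusted p = 0.0989 to 0.432, log2 differences 0.34 to 1.98) and without day 7 replicate 2 for Csrp3, Ldb3 and Myh1 (adjusted p = 0.0632 to 0.106, log2 differences 0.70 to 1.97). The same happened without day 1 replicate 1 for Myh2, Csrp3, Myh1 and Mylpf (adjusted p = 0.076 to 0.159, log2 differences 0.44 to 1.58), without day 1 replicate 2 for Mylpf (adjusted p = 0.0736, log2 difference 0.49) and without day 1 replicate 3 for Csrp3 and Myh1 (adjusted p = 0.0527 to 0.0891, log2 differences 0.66 to 1.80). With no scaling between arrays, Ldb3, Myh1 and Mylpf missed the threshold (adjusted p = 0.404 to 0.544). None of the 23 sarcomere genes passed without day 7 replicate 1, at a median of 0.14.

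The circadian clock list had the second largest share of called genes. Of 20 listed clock genes 18 were on the array and 16 were tested, and 6 fell and 3 rose, 56.2% called against 3.15% of all genes. The 6 that fell were the PER repressors Per2 and Per3, the output factors Dbp, Tef and Hlf and the nuclear receptor gene Nr1d2, and the 3 that rose were Arntl, which encodes BMAL1, its partner Clock, and Nfil3, a repressor that competes at D-boxes. The regulatory sequences of the clock genes named by rule are shown first, because these factors are known to act on each other through such sites. Each line gives the 250 bases before an annotated transcription start, from RefSeq promoter windows of mouse build GRCm38.p6, 5′ to 3′ in the direction of the gene. Capitals mark exact matches, on either strand, to the E-box CACGTG, the D-box TTATGTAA or the ROR element AGGTCA. Dbp lies on the forward strand (chr7:45704997-45705246), Per3 on the reverse strand (chr4:151044666-151044915), and Tef has 2 starts on the forward strand (chr15:81802423-81802672 and chr15:81811164-81811413). Per2 has no window in the table.
Dbp: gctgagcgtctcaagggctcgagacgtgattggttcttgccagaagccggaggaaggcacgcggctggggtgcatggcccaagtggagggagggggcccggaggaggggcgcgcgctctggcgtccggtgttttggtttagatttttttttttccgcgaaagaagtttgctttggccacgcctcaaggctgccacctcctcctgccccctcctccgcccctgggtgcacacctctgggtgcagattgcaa
Per3: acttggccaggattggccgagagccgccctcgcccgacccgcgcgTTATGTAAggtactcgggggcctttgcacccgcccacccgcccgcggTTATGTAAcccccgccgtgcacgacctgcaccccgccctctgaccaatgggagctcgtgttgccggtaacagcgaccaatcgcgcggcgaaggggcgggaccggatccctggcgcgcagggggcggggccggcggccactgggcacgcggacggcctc
Tef first start: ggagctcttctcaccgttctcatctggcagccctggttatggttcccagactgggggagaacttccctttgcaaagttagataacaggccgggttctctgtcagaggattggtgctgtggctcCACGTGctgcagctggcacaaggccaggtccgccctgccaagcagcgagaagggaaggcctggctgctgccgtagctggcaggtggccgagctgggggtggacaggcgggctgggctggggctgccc
Tef second start: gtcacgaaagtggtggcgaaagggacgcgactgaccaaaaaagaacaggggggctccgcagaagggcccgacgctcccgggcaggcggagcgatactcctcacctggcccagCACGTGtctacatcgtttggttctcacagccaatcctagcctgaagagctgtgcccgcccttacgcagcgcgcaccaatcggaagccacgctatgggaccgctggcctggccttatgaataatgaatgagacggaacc

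The Per3 window holds the D-box at 2 places, from -205 to -198 and from -158 to -151 relative to the start. Each Tef window holds 1 E-box, from -127 to -122 at the first start and from -138 to -133 at the second, and the Dbp window holds none of the 3 motifs. Among all 32851 RefSeq windows of the same 300 bases (250 before and 50 after the start), 7.15% held the E-box, 0.938% the D-box and 16.3% the ROR element. Of the 16 tested clock genes 14 had a window, 19 windows in all. Upstream of the start, Per1 and Cry1 also held an E-box, and Per1, Clock, Nfil3 and Nr1d2 held a ROR element. Arntl held a ROR element after its start, from 31 to 36, a place that the shares over all windows also count. A match describes letters in a window, not a bound site. For the ROR element only the 6 letters AGGTCA were matched, with no flanking bases required.

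Dbp, the output factor that activates genes through D-boxes, stood at 469.2 and 318.5 at day 7 against 1572, 1660 and 1416 at day 1. Both day 7 arrays lay far below every day 1 array, and the log2 difference was -1.91 ± 0.20 (SE, adjusted p = 0.00012). A different Dbp probe set gave -1.66 ± 0.17 (SE, adjusted p = 0.000172). Per2, a core repressor, fell to 54 and 62.1 at day 7, in the dim range, against 267.4, 306.2 and 238.2 at day 1 (-1.74 ± 0.16 (SE, adjusted p = 2.59e-05)). Tef, a relative of Dbp, measured 1601 and 1452 at day 7 against 2954, 2996 and 3150 at day 1 (-0.98 ± 0.09 (SE, adjusted p = 2.59e-05)). Per3, the repressor gene with the D-boxes shown above, was at 201.6 and 222.9 at day 7 against 365.6, 399.6 and 367.2 at day 1 (-0.75 ± 0.12 (SE, adjusted p = 0.00481)). Hlf, the remaining D-box activator, was at 356.8 and 268.4 at day 7 against 502.7, 573.5 and 521 at day 1 (-0.72 ± 0.13 (SE, adjusted p = 0.00713)), and Nr1d2, which encodes the nuclear receptor REV-ERB beta, at 1224 and 1504 at day 7 against 2262, 2486 and 2163 at day 1 (-0.75 ± 0.14 (SE, adjusted p = 0.0104)). On the rising side, Arntl reached 391.2 and 433.5 at day 7 against 186, 206.8 and 198.5 at day 1 (0.96 ± 0.18 (SE, adjusted p = 0.00927)). Clock was at 378.6 and 414.4 at day 7 against 246.5, 255.1 and 249.8 at day 1 (0.60 ± 0.12 (SE, adjusted p = 0.0128), and 0.35 with adjusted p = 0.242 on another probe set), and Nfil3 at 144.9 and 143.2 at day 7 against 68.1, 62.3 and 87.4 at day 1 (0.76 ± 0.20 (SE, adjusted p = 0.0493)). Other probe sets of Per3 and Nr1d2 gave -0.69 and -1.17 and did not pass (adjusted p = 0.0553 and 0.0829). Those of Per2, Tef and Hlf passed, at -0.96, -1.79 and -0.83 (adjusted p = 0.0233, 0.0283 and 0.0112). Hlf, Nr1d2, Arntl, Clock and Nfil3 are named after their values were seen.

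The clock genes that did not pass were mixed. Cry1 and Per1, both repressors, had non-overlapping groups at -0.74 ± 0.21 (SE, adjusted p = 0.0673) and -0.63 ± 0.20 (SE, adjusted p = 0.0907), and Cry2 differed by -0.35 with overlapping groups. Nr1d1, which encodes REV-ERB alpha, went the other way from Nr1d2, at 998.8 and 679.4 at day 7 against 631.4, 569.9 and 572.7 at day 1 (0.46 ± 0.15 (SE, adjusted p = 0.103)). Dbp and Per2 were also lower at day 7 than at day 0. Dbp was at 2360, 1812 and 1842 at day 0 and Per2 at 410.4, 550 and 593.4, and against day 0 the day 7 differences were -2.27 and -2.60. Over the list, 9 genes fell and 2 rose at day 7 against day 0 (5.95% and 5.50% of all genes did, 11.4% together), with a median of -0.91, and the median against day 1 was -0.49. With each of the 5 arrays left out in turn, Dbp, Per2 and Tef stayed past the threshold all 5 times. Limma's call was lost without day 7 replicate 1 for Per3, Nr1d2, Arntl, Clock and Nfil3 (adjusted p = 0.0848 to 0.293, log2 differences -0.68 to 1.02) and without day 7 replicate 2 for Hlf, Arntl, Clock and Nfil3 (adjusted p = 0.0691 to 0.145, log2 differences -0.54 to 0.89). Other calls went without day 1 replicate 1 for Nfil3 (adjusted p = 0.132, log2 difference 0.73), without day 1 replicate 2 for Nfil3 (adjusted p = 0.119, log2 difference 0.69) and without day 1 replicate 3 for Nfil3 (adjusted p = 0.0529, log2 difference 0.86). Unscaled, Per3, Hlf, Nr1d2, Arntl, Clock and Nfil3 missed the threshold (adjusted p = 0.0537 to 0.517). Of the 16, 4 fell and 0 rose without day 7 replicate 1, and 3 fell and 0 rose without further scaling.

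**Figure D3:**
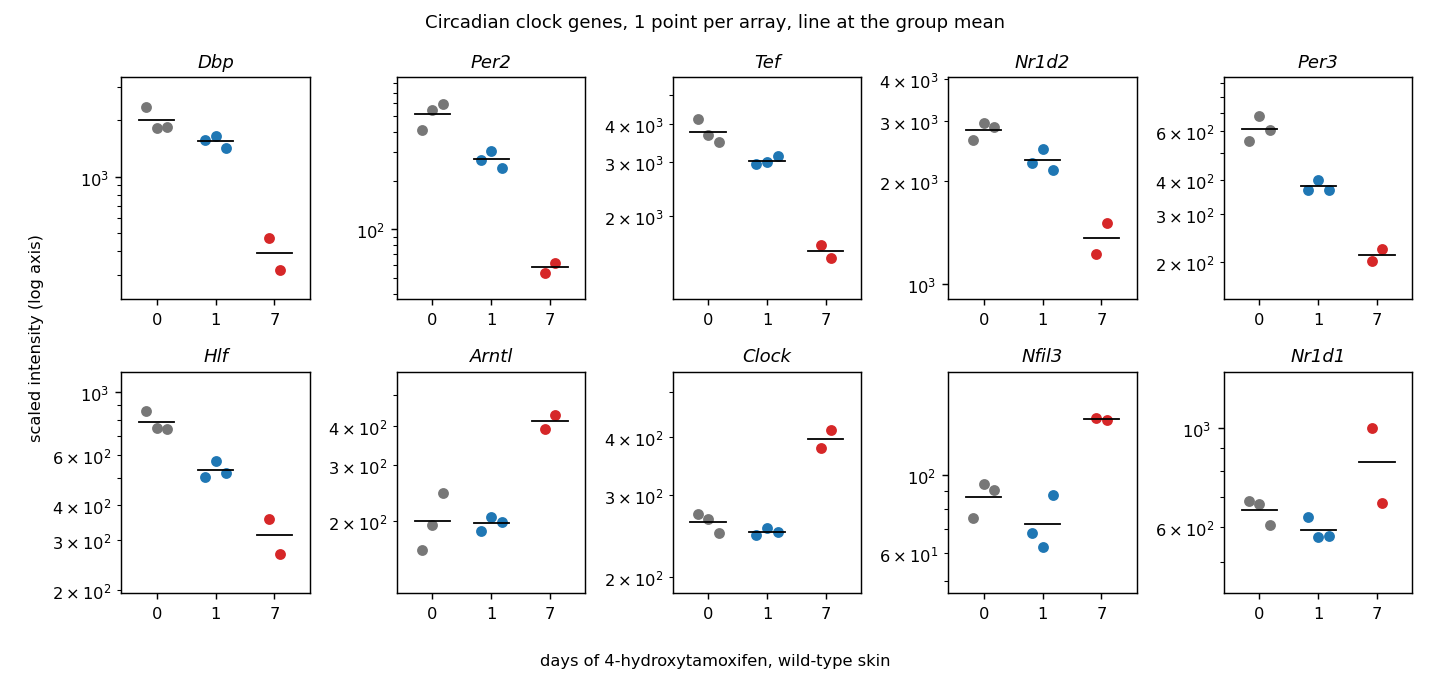
Scaled intensity (log axis) of 10 circadian clock genes in wild-type skin at 0, 1 and 7 days of 4-hydroxytamoxifen, 1 point per array (n = 3, 3 and 2) and a line at each group mean. Dbp, Per2, Tef, Nr1d2, Per3 and Hlf are lowest at day 7, and Arntl, Clock and Nfil3 are highest there. Nr1d1 did not pass the test.

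The chemokine genes Ccl12, Ccl7 and Ccl2, which attract monocytes, fell. Ccl12, a mouse ligand of CCR2, stood at 185.4 and 193.6 at day 7 against 533, 708.6 and 769.7 at day 1, and at 91.6, 86.2 and 123.7 at day 0. Day 7 thus lay between the other days on every array, and the difference from day 1 was -1.65 ± 0.16 (SE, adjusted p = 4.43e-05). Ccl7, another CCR2 ligand, was at 159.4 and 189.8 at day 7 against 433.8, 508.1 and 792.1 at day 1 (-1.52 ± 0.26 (SE, adjusted p = 0.00578)), and Ccl2, the best known of them, at 229.2 and 229.3 at day 7 against 422.4, 510.4 and 961.8 at day 1 (-1.26 ± 0.31 (SE, adjusted p = 0.0372)). All 3 stayed above untreated skin, by 0.75, 0.85 and 1.15 (adjusted p = 0.00731, 0.0444 and 0.0249). Of 32 listed chemokines 20 were tested, and 3 fell and 2 rose, or 25% called against 3.15% of all genes. Cxcl14, which resting epidermis makes, rose to 909.6 and 902.4 at day 7, against 345.4, 370.6 and 398.4 at day 1 and 695.2, 627.5 and 954.4 at day 0 (1.22 ± 0.18 (SE, adjusted p = 0.00224)). Ccl20, a ligand of CCR6, was at 183.8 and 289.6 at day 7 against 76.3, 88 and 97.2 at day 1 (1.15 ± 0.26 (SE, adjusted p = 0.0273)). Ccl8, another monocyte-attracting chemokine, was at 11373 and 10240 at day 7 against 7779, 6897 and 5657 at day 1 and did not pass (0.68 ± 0.28 (SE, adjusted p = 0.193)).

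The macrophage markers did not follow the chemokines down as a list. Of 26 tested markers 2 fell and 0 rose (7.69%, against 3.15% of all genes), with a median difference of 0.01. Their summed intensity was 69611 and 71222 at day 7 against 72437, 65831 and 70587 at day 1. At day 0 the sum was 36383, 33033 and 34133, and 23 of the 26 were higher at day 7 than at day 0 (5.50% of all genes were), with a median of 1.03. The markers Adgre1 (0.27), Csf1r (0.23), C1qa (0.14) and Mrc1 (-0.10) did not pass against day 1. Those that fell were Lyve1, a hyaluronan receptor of resident macrophages and lymphatic vessels, at 1047 and 1233 at day 7 against 3766, 3542 and 3430 at day 1 (-1.63 ± 0.42 (SE, adjusted p = 0.0456)), and the scavenger receptor gene Msr1, at 184.4 and 174.5 at day 7 against 456, 326.7 and 449.1 at day 1 (-1.05 ± 0.21 (SE, adjusted p = 0.0131)). Another Lyve1 probe set gave -1.83 and did not pass (adjusted p = 0.0503). The other Msr1 probe sets gave -1.25, which passed, and -0.78, which did not (adjusted p = 0.0329 and 0.13). Cd68, a lysosomal macrophage protein, had non-overlapping groups at 1458 and 1639 at day 7 against 2924, 2569 and 2571 at day 1 but did not pass (-0.78 ± 0.24 (SE, adjusted p = 0.0868)). Chil3, the chitinase-like marker of activated mouse macrophages, was at 20.4 and 5.8 at day 7 against 206.2, 68.6 and 95.5 at day 1, the day 7 values lying near the bottom of the range (-1.71 ± 0.30 (SE, adjusted p = 0.0073)). Hmox1, which degrades haem, was at 778.7 and 802.9 at day 7 against 1789, 1592 and 1455 at day 1 (-0.99 ± 0.16 (SE, adjusted p = 0.00481)), and Prtn3, proteinase 3 of myeloid granules, at 40.6 and 77.9 at day 7 against 205.9, 273 and 174.9 at day 1 (-1.47 ± 0.27 (SE, adjusted p = 0.00975)). Pgf, a ligand of VEGF receptor 1, stood at 64.9 and 82.4 at day 7 against 174.5, 254.8 and 332.4 at day 1 (-1.40 ± 0.27 (SE, adjusted p = 0.0116)). With each of the 5 arrays left out in turn, Ccl12 and Cxcl14 stayed past the threshold all 5 times. The call did not hold without day 7 replicate 1 for Ccl7, Ccl2, Ccl20, Lyve1, Msr1, Hmox1, Prtn3 and Pgf (adjusted p = 0.0804 to 0.316, log2 differences -1.51 to 1.44) and without day 7 replicate 2 for Ccl2, Ccl20, Lyve1, Msr1 and Chil3 (adjusted p = 0.0687 to 0.189, log2 differences -1.74 to 0.86). Day 1 arrays mattered too, with calls lost without day 1 replicate 1 for Ccl20, Lyve1 and Msr1 (adjusted p = 0.0552 to 0.123, log2 differences -1.59 to 1.08), without day 1 replicate 2 for Ccl2, Ccl20 and Lyve1 (adjusted p = 0.0532 to 0.0845, log2 differences -1.63 to 1.15) and without day 1 replicate 3 for Ccl2 and Lyve1 (adjusted p = 0.0883 to 0.102, log2 differences -1.66 to -0.93). In the unscaled data, Ccl20 missed the threshold (adjusted p = 0.0676). Neutrophil markers gave 0 calls of 4 tested in limma, with 1 higher at an unadjusted p under 0.05, and T cell markers 0 of 9, with 1 lower. Of all genes, 9.11% were higher and 9.66% lower at that threshold.

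Of the DNA replication genes 11 fell, and of the mitosis genes 0 passed. Mcm5, a subunit of the replicative helicase, stood at 163 and 182.8 at day 7 against 448.4, 438 and 516.4 at day 1, and at 222.2, 304 and 296.8 at day 0, so the day 7 arrays were the lowest of all 8 (-1.28 ± 0.16 (SE, adjusted p = 0.000441)). Its partner Mcm3 was at 344.2 and 388.8 at day 7 against 731.6, 716.7 and 766.8 at day 1 (-0.95 ± 0.13 (SE, adjusted p = 0.00147)). Fen1, the flap endonuclease that trims Okazaki fragments, measured 637.5 and 626.3 at day 7 against 1536, 1405 and 1525 at day 1 (-1.19 ± 0.28 (SE, adjusted p = 0.0295)), and Cdt1, which loads the helicase, 439.4 and 405 at day 7 against 738.4, 741.5 and 745.9 at day 1 (-0.77 ± 0.12 (SE, adjusted p = 0.00342)). Of 30 listed replication genes 24 were tested, and 11 fell and 0 rose (45.8%, against 3.15% of all genes), with a median of -0.56. The rest of the 11 were Mcm2 (-0.91), Mcm6 (-0.67), Mcm4 (-0.66), Mcm7 (-0.44), the primase gene Prim1 (-0.61), Rfc5 of the clamp loader (-0.57) and Rrm2 of ribonucleotide reductase (-0.56). The list's summed intensity was 10459 and 10872 at day 7 against 15262, 14748 and 16588 at day 1, with no overlap, and 11640, 13390 and 13042 at day 0. Against day 0, 9 of the 24 fell, against 5.95% of all genes, with a median of -0.32. Pcna, the sliding clamp, did not pass (-0.18 ± 0.08 (SE, adjusted p = 0.254)).

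Among 31 tested mitosis genes limma called 0, at a median of -0.17. At an unadjusted p under 0.05, 1 was higher and 5 lower, beside 9.11% and 9.66% of all genes. Mki67, the proliferation marker, was at 586.2 and 643.1 at day 7 against 610.7, 568.6 and 642.5 at day 1 (0.02 ± 0.14 (SE, adjusted p = 0.972)), and Top2a, topoisomerase 2 alpha, at 458.6 and 555.5 at day 7 against 601.1, 569.4 and 756.8 at day 1 (-0.32 ± 0.16 (SE, adjusted p = 0.313)). Against day 0, 6 of the 31 mitosis genes were higher, against 5.50% of all genes, and 0 lower, at a median of 0.44. The 2 lists were not tested against each other. Ccnd1, the G1 cyclin, fell to 981.7 and 976.2 at day 7, against 1658, 1529 and 1626 at day 1 (-0.69 ± 0.09 (SE, adjusted p = 0.00106)). The other Ccnd1 probe sets gave -0.85, which passed, and -0.44, which did not (adjusted p = 0.000539 and 0.382). Mcm7 gave -0.21 and -0.61 (adjusted p = 0.663 and 0.146) on its others that did not pass. Prim1 and Mcm4 gave -0.52 each on another probe set, which did not pass (adjusted p = 0.0898 and 0.111). The other probe sets of Mcm2, Mcm3, Mcm6, Cdt1, Fen1 and Rrm2 passed. With each of the 5 arrays left out in turn, Mcm5, Mcm3, Cdt1, Prim1 and Ccnd1 stayed past the threshold all 5 times. Calls disappeared without day 7 replicate 1 for Fen1, Mcm2, Mcm6, Mcm4, Mcm7, Rfc5 and Rrm2 (adjusted p = 0.0537 to 0.347, log2 differences -1.21 to -0.39) and without day 7 replicate 2 for Fen1, Mcm7 and Rrm2 (adjusted p = 0.0632 to 0.117, log2 differences -1.18 to -0.46). More calls were lost without day 1 replicate 1 for Fen1 and Rrm2 (adjusted p = 0.0637 to 0.089, log2 differences -1.17 to -0.61), without day 1 replicate 2 for Fen1 (adjusted p = 0.0534, log2 difference -1.23) and without day 1 replicate 3 for Fen1, Rfc5 and Rrm2 (adjusted p = 0.0721 to 0.107, log2 differences -1.18 to -0.45). Without scaling, Cdt1, Mcm6, Mcm4, Mcm7, Prim1, Rfc5, Rrm2 and Ccnd1 missed the threshold (adjusted p = 0.0738 to 0.443). Without day 7 replicate 1, 4 of the 24 replication genes fell past the threshold, at a median of -0.53.

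**Figure D4:**
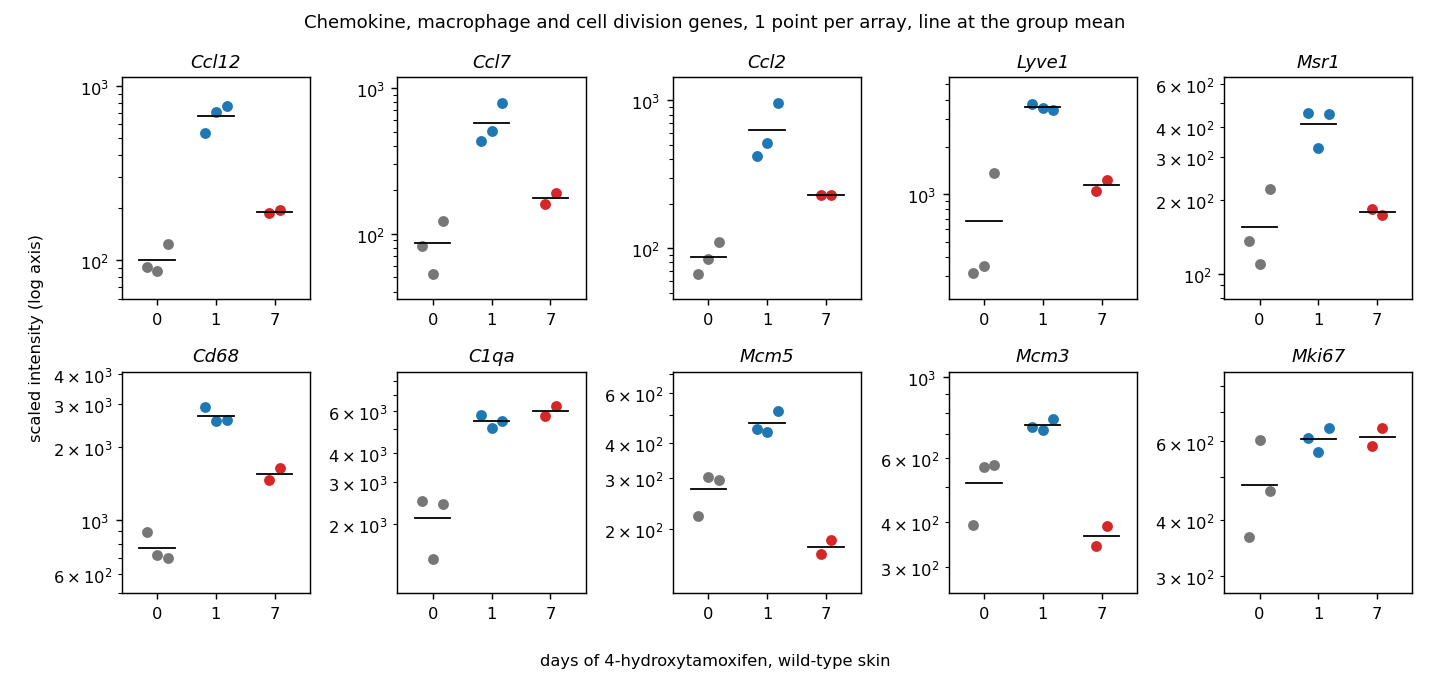
Scaled intensity (log axis) of 10 chemokine, macrophage and cell division genes in wild-type skin at 0, 1 and 7 days of 4-hydroxytamoxifen, 1 point per array (n = 3, 3 and 2) and a line at each group mean. Ccl12, Ccl7, Ccl2, Lyve1 and Msr1 peak at day 1, C1qa is high at both days 1 and 7, and Mcm5 and Mcm3 are lowest at day 7. Cd68, C1qa and Mki67 did not pass the test between days 7 and 1.

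Single genes of the matrix and of growth control also changed. Tspan4, a tetraspanin, fell to 311.8 and 351.7 at day 7, against 949.8, 1019 and 819.6 at day 1 (-1.40 ± 0.13 (SE, adjusted p = 2.59e-05)). Gpc3, a glypican that binds growth factors, was at 126.7 and 176.5 at day 7 against 423.8, 433.5 and 441.5 at day 1 (-1.35 ± 0.22 (SE, adjusted p = 0.00355)), and Sfrp2, a secreted Wnt modulator of fibroblasts, at 121.2 and 101.7 at day 7 against 303.4, 369.6 and 236.2 at day 1 (-1.21 ± 0.26 (SE, adjusted p = 0.0217)). Both were higher still at day 0, at 716.2, 540.8 and 580.2 for Gpc3 and 735.2, 513.2 and 1097 for Sfrp2. Adamts1, a matrix protease, was at 654.9 and 650.1 at day 7 against 1240, 1468 and 1387 at day 1 (-1.03 ± 0.15 (SE, adjusted p = 0.00224)), and P4ha2, a collagen prolyl hydroxylase, at 353.3 and 413.3 at day 7 against 603.8, 692.3 and 1003 at day 1 (-0.92 ± 0.19 (SE, adjusted p = 0.0147)). Collagen genes gave 1 call of 21 (4.76%, near the 3.15% of all genes), Col5a3, at 2191 and 2288 at day 7 against 1405, 1277 and 1168 at day 1 (0.79 ± 0.19 (SE, adjusted p = 0.0298)). The 2 probe sets of Col1a1, type I collagen, disagreed: the one used did not pass (0.22 ± 0.11 (SE, adjusted p = 0.275)), and the other fell (-0.81 ± 0.20 (SE, adjusted p = 0.0424)). Eln, elastin, rose by 0.71 ± 0.15 (SE, adjusted p = 0.0205), and the TGF-beta pathway genes Ltbp1 and Tgfb2 by 0.70 ± 0.14 (SE, adjusted p = 0.0147) and 0.81 ± 0.15 (SE, adjusted p = 0.00975). The 2 other Tgfb2 probe sets did not pass, at 0.20 and 0.53 (adjusted p = 0.56 and 0.204).

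Among metabolic and hypoxia genes, Slc2a1, the glucose transporter GLUT1, stood at 805.4 and 671.7 at day 7 against 334, 386.2 and 400.8 at day 1 (0.92 ± 0.14 (SE, adjusted p = 0.00224)), and Egln3, an oxygen sensor, at 628.3 and 669.6 at day 7 against 246.5, 254.7 and 343.2 at day 1 (1.13 ± 0.15 (SE, adjusted p = 0.000971)). In both, day 1 was the low point, with day 0 at 510.7, 600.9 and 497.5 for Slc2a1 and 546.1, 553.6 and 543.9 for Egln3. Another Egln3 probe set gave 0.86 and did not pass (adjusted p = 0.149). The other Slc2a1 probe sets passed, at 0.65 and 0.49 (adjusted p = 0.0174 and 0.032). Of 36 tested xenobiotic metabolism enzymes 3 fell and 0 rose (8.33%, against 3.15% of all genes), among them Cyp2e1 at 1340 and 1377 at day 7 against 4231, 2755 and 1920 at day 1 (-1.04 ± 0.24 (SE, adjusted p = 0.0257)) and Gstt1 (-0.79). Igfbp2, an IGF-binding protein, fell by 0.80 ± 0.15 (SE, adjusted p = 0.00975) on the log2 scale, and Tsc22d3, the glucocorticoid-induced GILZ, by 0.64 ± 0.16 (SE, adjusted p = 0.0372). The other Tsc22d3 probe sets gave -0.75, which passed, and -0.01, which did not (adjusted p = 0.0442 and 0.99). Acute-phase genes gave 3 calls of 11 (27.3%, against 3.15% of all genes) with mixed signs, Crp at 0.72, Hmox1 at -0.99 and Serpina3n at -0.74. With each of the 5 arrays left out in turn, Tspan4, Adamts1 and Egln3 stayed past the threshold all 5 times. No call remained without day 7 replicate 1 for Gpc3, Sfrp2, P4ha2, Col5a3, Eln, Ltbp1, Tgfb2, Slc2a1, Cyp2e1, Igfbp2 and Tsc22d3 (adjusted p = 0.0692 to 0.311, log2 differences -1.31 to 0.82) and without day 7 replicate 2 for Sfrp2, Col5a3, Eln, Ltbp1, Cyp2e1 and Tsc22d3 (adjusted p = 0.0691 to 0.129, log2 differences -1.11 to 0.77). Calls were also missed without day 1 replicate 1 for Sfrp2, Col5a3, Cyp2e1 and Tsc22d3 (adjusted p = 0.0565 to 0.118, log2 differences -1.20 to 0.86), without day 1 replicate 2 for Sfrp2, Col5a3, Eln, Cyp2e1 and Tsc22d3 (adjusted p = 0.0532 to 0.0648, log2 differences -1.07 to 0.79) and without day 1 replicate 3 for Col5a3 and Tsc22d3 (adjusted p = 0.08 to 0.0876, log2 differences -0.64 to 0.73). On unscaled intensities, Col5a3, Eln, Ltbp1, Tgfb2, Slc2a1, Igfbp2 and Tsc22d3 missed the threshold (adjusted p = 0.0562 to 0.431).

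Single members of larger lists passed as well. They included the sebaceous genes Krt79 (0.55) and Elovl3 (0.75), 2 of 16 tested, and the endothelial receptor gene Tek (0.58), 1 of 14. Others were the cholesterol enzyme gene Mvk (0.41, 1 of 19) and the basal epidermal linker gene Dst (-0.48, 1 of 14). Herpud1 of the endoplasmic reticulum (-0.42, 1 of 21) and the ribosomal protein gene Rps25 (-0.39, 1 of 33) passed too. These shares ran from 3.03% to 12.5%, beside 3.15% of all genes, so several lay near that share. Other probe sets of Mvk and Herpud1 gave 0.45 and -0.41 and did not pass (adjusted p = 0.101 and 0.167). The Dst call rests on 1 of 4 probe sets, the other 3 giving -0.06, 0.20 and 0.05 (adjusted p = 0.921, 0.491 and 0.908). With 1 array left out, the difference of Elovl3 lay between 0.41 and 1.10. A call was lost without day 7 replicate 1 for Krt79, Elovl3, Tek, Mvk, Dst, Herpud1, Rps25, Crp, Serpina3n and Gstt1 (adjusted p = 0.093 to 0.519, log2 differences -0.68 to 0.75) and without day 7 replicate 2 for Krt79, Tek, Mvk, Dst, Herpud1, Rps25, Crp and Serpina3n (adjusted p = 0.0516 to 0.227, log2 differences -0.79 to 0.70). Some were lost as well without day 1 replicate 1 for Krt79, Elovl3, Tek, Mvk, Herpud1, Rps25, Crp, Serpina3n and Gstt1 (adjusted p = 0.0541 to 0.146, log2 differences -0.79 to 0.70), without day 1 replicate 2 for Elovl3, Tek, Herpud1, Rps25, Serpina3n and Gstt1 (adjusted p = 0.0532 to 0.129, log2 differences -0.77 to 0.74) and without day 1 replicate 3 for Tek, Mvk, Herpud1 and Crp (adjusted p = 0.0607 to 0.112, log2 differences -0.40 to 0.65). With unscaled values, Krt79, Elovl3, Tek, Mvk, Dst, Herpud1, Rps25, Crp, Serpina3n and Gstt1 missed the threshold (adjusted p = 0.0733 to 0.87).

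Several groups gave no call. Hair shaft and inner root sheath genes gave 0 of 20 in limma, and 0 at an unadjusted p under 0.05, and were dim on all wild-type arrays, at a mean of 6.62 and 6.48 at day 7 against 6.46 to 6.66 at day 1 on the log2 scale. Interferon response genes also gave 0 of 26 and 0 at an unadjusted p under 0.05. Bulge genes gave 0 of 14, dermal fibroblast markers 0 of 20, fat cell genes 0 of 19, complement genes 0 of 14, MHC class II genes 0 of 10 and Hedgehog and BMP pathway genes 0 of 18. At an unadjusted p under 0.05, these counts were 0, 6, 4, 3, 2 and 4, beside 18.8% of all genes. Immediate early genes gave 0 of 24, with 7 higher and 1 lower at an unadjusted p under 0.05, beside 9.11% and 9.66% of all genes. Esr1, the oestrogen receptor gene, was dim at 13.4 and 18.2 at day 7 against 36.4, 15.9 and 45 at day 1, and differed by -0.41 ± 0.34 (SE, adjusted p = 0.574). Ctnnb1, which encodes beta-catenin, was at 5894 and 5308 at day 7 against 4845, 4811 and 4977 at day 1 (0.20 ± 0.08 (SE, adjusted p = 0.178)), and its target Axin2 differed by 0.17 ± 0.10 (SE, adjusted p = 0.399). Other Ctnnb1 probe sets had the opposite sign, at -0.08 and -0.16, and did not pass (adjusted p = 0.85 and 0.375).

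More genes passed for the same step from day 1 to day 7 in transgenic skin, where 1948 genes rose and 2060 fell (21.5% and 22.7% of 9058, together 44.2%). These arrays are not shared with the wild-type comparison. Of the 152 genes that rose in wild-type skin, 38 rose in transgenic skin too (25% of the wild-type list and 1.95% of the transgenic list), and 41 fell there. Of the 133 that fell in wild-type skin, 50 fell in transgenic skin (37.6% and 2.43%), and 40 rose there. The test of the difference between genotypes called 2656 genes (29.3%). The clock genes Dbp, Per2 and Tef fell in both genotypes. Dbp fell by 2.37 in transgenic skin, a difference between genotypes of -0.45 ± 0.27 (SE, adjusted p = 0.226), Per2 by 1.84 (-0.10 ± 0.21 (SE, adjusted p = 0.761)) and Tef by 1.20 (-0.22 ± 0.12 (SE, adjusted p = 0.175)). The chemokine genes Ccl12 and Ccl2 also fell in both, with differences between genotypes of -0.29 ± 0.22 (SE, adjusted p = 0.323) and -0.58 ± 0.42 (SE, adjusted p = 0.309). Klk6 rose by 1.54 in transgenic skin (0.03 ± 0.32 (SE, adjusted p = 0.955)).

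Other changes differed by this test. Krt2 differed by 0.32 in transgenic skin, against its rise of 3.98 in wild-type skin (-3.66 ± 0.42 (SE, adjusted p = 2.78e-05) between genotypes). Klk1b27 and Sprr1b did not pass in transgenic skin, at -0.47 and -0.29 (adjusted p = 0.271 and 0.519), and their differences between genotypes were -3.44 ± 0.50 (SE, adjusted p = 0.000154) and -3.13 ± 0.52 (SE, adjusted p = 0.000447). Klk1 fell by 0.88 in transgenic skin while it rose by 1.62 in wild-type skin (-2.50 ± 0.39 (SE, adjusted p = 0.0003)). The replication gene Mcm5 rose by 0.63 in transgenic skin and fell in wild-type skin (1.91 ± 0.21 (SE, adjusted p = 1.81e-05)), as did Ccnd1, at 0.66 and -0.69 (1.35 ± 0.13 (SE, adjusted p = 4.76e-06)). Of the 23 sarcomere genes, 20 fell and 0 rose in transgenic skin, beside 22.7% and 21.5% of all genes, with a median of -0.81. In wild-type skin 6 rose, beside 1.68% of all genes, with a median of 0.26. The test between genotypes called 20 of the 23 lower and 0 higher, beside 15.1% and 14.2% of all genes. The 20 hair shaft and inner root sheath genes had a median difference of 4.59 in transgenic skin and of -0.03 in wild-type skin. In transgenic skin 19 were higher, beside 21.5% of all genes. Between genotypes 19 were called higher and 0 lower, beside 14.2% and 15.1% of all genes.

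**Figure D5:**
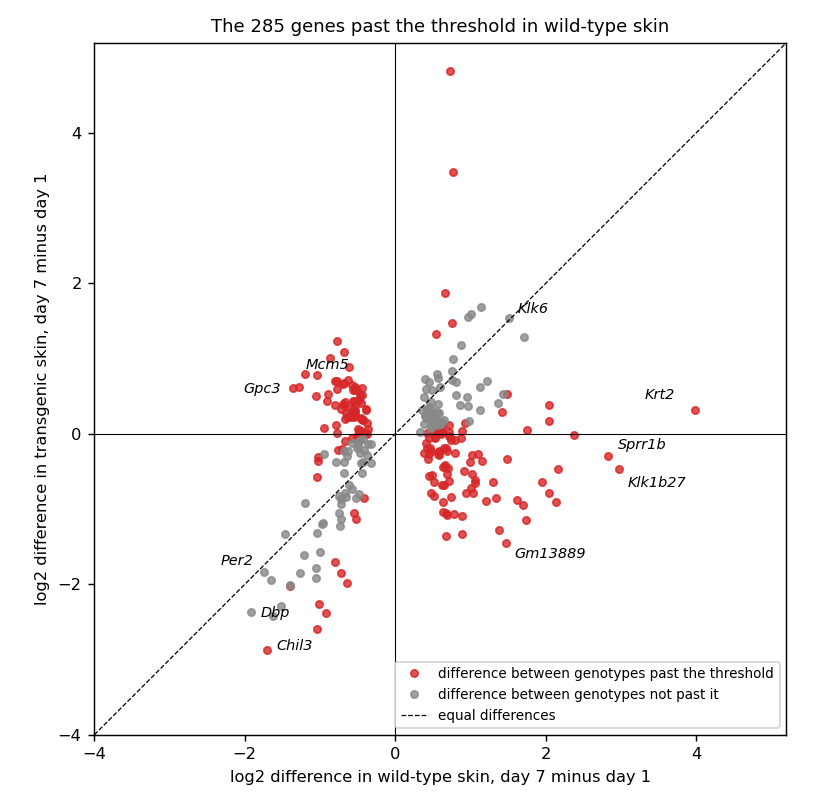
The 285 genes past the threshold in wild-type skin, by their log2 difference between days 7 and 1 in wild-type skin (horizontal axis) and in transgenic skin (vertical axis). Red points also passed the test of the difference between genotypes, and the dashed line marks equal differences. Dbp, Per2 and Klk6 lie near the line, and Krt2, Klk1b27 and Sprr1b lie far below it.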

How the data were processed

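Total skin RNA of 16 samples, 1 array each, was labelled as biotinylated cRNA and hybridised to Affymetrix Mouse 430 A arrays, per the labels. The authors deposited 1 intensity per probe set on a linear scale, for 22690 probe sets, 64 of them controls. The sources used here do not give the software that summarised and scaled the probes. Samples were grouped by genotype and day in the titles. Where the labels do not say that samples came from separate animals, p-values measure only the spread between these samples. Precision is limited by how many arrays there were, since an array has no read depth.

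Each array was scaled to a common mean, trimmed by 2% at each end, by a factor of 0.9 and 1.26 at day 7 and 0.844 to 1.11 at day 1, since the trimmed means before scaling were 501 and 358 at day 7 and 407 to 534 at day 1. Values were analysed as log2(intensity + 32), which understates changes of dim genes. A probe set was kept if its signal exceeded the array's 40th percentile on 2 or more of the 16 arrays (15058 were). The platform annotation gave 1 gene for 20393 probe sets, several for 691 and none for 1542, and 0 symbols changed in RefSeq. The brightest kept probe set stood for each of 9058 genes, 3242 of which had more than 1. Of 159 other probe sets of called genes, 137 went the same way, but only 33 of these passed the threshold. None went the opposite way past it.

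Means of 6 groups over 16 arrays were fitted in limma 3.58.1 (R 4.3.3) with trended empirical Bayes variances and 10 residual degrees of freedom. Tests were two-sided, with Benjamini-Hochberg adjustment over all genes and a threshold of 0.05. Differences are day 7 minus day 1, with the fitted standard error as SE. The fit was tested on simulated data. Alternatives were quantile normalization, no scaling, other added values, filters and probe sets, fewer groups in the fit, no variance trend, a replicate block and each array left out.

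The comparison, its 44 gene lists (939 genes, 823 on the array, 732 tested, 59 in more than 1 list, 0 tested in the red blood cell list) and the rules were chosen with earlier results of these data known. Named were the 14 largest rises and 14 largest falls past the threshold without overlap, up to 4 members per list by p or 2 bright members where 0 passed, up to 6 differences between genotypes each way, and Esr1, Ctnnb1, Krt14, Krt5, Klk1, Mki67, Cd68, Ccl2, Col1a1 and Gapdh. Other list members given with values, and genes said to be so, were named after their values were seen. Plots were made in Python 3.11.15 with matplotlib 3.10.9.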

Additional observations from a re-analysis of the deposited data

Results flagged for a closer look

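The step from day 1 to day 7 differed between transgenic and wild-type skin for 2656 of 9058 genes in limma's test of the difference itself, against 285 called in wild-type skin alone. Each value below is that difference on the log2 scale, the transgenic change minus the wild-type change, for a named gene with an adjusted p under 0.05, and the largest adjusted p among the 66 genes is 0.0398. No explanation was weighed. Without each array of the 4 groups in turn, 1784 to 2726 genes passed.

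Lower in the transgenic than in the wild-type change were the epidermal and kallikrein genes Krt2 (-3.66), Klk1b27 (-3.44), Sprr1b (-3.13), Krt6b (-3.05), Krt16 (-2.84), Klk1b24 (-2.59), Klk1 (-2.5), Klk1b21 (-2.38), Stfa3 (-1.87) and Lce3c (-1.69). The muscle genes Xirp1 (-3.06), Csrp3 (-2.88), Ankrd2 (-2.65), Hspb7 (-2.63), Actn2 (-2.18), Cryab (-2.11), Mb (-1.83), Ldb3 (-1.73) and Myh2 (-1.71) were lower in the same sense. So were the signalling and inflammatory genes Tnfrsf12a (-1.66), Ccl20 (-1.51), Chil3 (-1.17), Psmb8 (-0.77), Tap1 (-0.47), Crp (-0.77), Serping1 (-0.83) and Cma1 (-0.83), and the predicted gene Gm13889 (-2.92). Further genes of metabolism, matrix, vessels and nerve were Cyp2e1 (-1.56), Gstt1 (-0.91), Car3 (-0.52), Slc2a1 (-0.78), P4ha2 (-1.46), Ltbp1 (-1.15), Col5a3 (-1.04), Eln (-0.74), Tek (-0.86), Mbp (-1.58), Pmp22 (-1.07), Gas6 (-0.91), Tsc22d3 (-1.35), Tspan4 (-0.63) and Herpud1 (-0.43).

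Higher in the transgenic change were the hair genes Krt25 (8.19), Krt27 (6.4), Krt71 (6.29), Krt33a (5.97), Krtap8-1 (5.76) and Tchh (5.72) and the pigment genes Dct (2.6) and Mitf (0.53). Cell division genes formed another group with Fen1 (1.99), Mcm5 (1.91), Mki67 (1.39), Stmn1 (1.37), Ccnd1 (1.35), Mcm3 (1.03), Mcm6 (0.87) and Cdt1 (0.78). The rest were Gpc3 (1.97), Igfbp2 (1.5), Id4 (1.36), Zap70 (1.32), Adamts1 (0.67), Bmpr1a (0.56) and Rps25 (0.41).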

How the results depend on the processing

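For wild-type day 7 against day 1, 285 genes passed, and 35 to 211 passed with 1 of the 5 arrays left out, 35 of them without day 7 replicate 1, 135 without day 7 replicate 2 and 123 without day 1 replicate 1. With no further scaling 74 passed (44.6% of them higher, against 53.3%), and with only the groups compared 181 passed. For day 7 against day 0, 1037 genes passed, 257 with no further scaling (64.2% higher, against 48%), and 327 to 859 with an array left out (327 and 446 without day 7 replicates 1 and 2, and 647 without day 0 replicate 2). Transgenic day 7 against day 1 gave 4008 genes, 1892 with no further scaling, and 3167 to 3791 with an array left out. The difference between genotypes gave 2656 genes, 821 with no further scaling (59% higher, against 48.3%), and 1784 to 2726 with an array left out. Leaving out an array leaves fewer samples, and day 7 then rests on 1 array assumed to vary like the other groups. The cause of the drop without scaling was not tested. Of the 69 named genes called in wild-type skin, 0 reversed under any alternative run. Runs with an array left out could not reverse them, because their groups did not overlap. The 60th percentile filter kept only 56 of the 69 for testing. Fewest calls were lost at 60th percentile filtering (0 of 56), 2 were lost with quantile normalization, the larger added value or the mean of all probe sets, 3 with the smaller added value, 5 with no variance trend, 7 with only the 8 wild-type arrays, 9 with no filter, 13 with only the groups compared, 25 with no further scaling, 10 to 19 without 1 day 1 array, and 47 and 25 without day 7 replicates 1 and 2. Replicate numbers are shared by 2 pairs only, whose deviations from the group means correlated at -0.131 and -0.0092. The deviations of the 2 day 7 arrays mirror each other by construction, so these values cannot show whether the numbers pair the samples. With the replicate block 201 genes passed, and 11 of the 69 calls were lost. Intensities below about 101 to 132 limit what can be said of the dimmest genes, and the labels do not separate drug from elapsed time.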

Other observations

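The genes Casq2, Agfg1 and Cys1, which are in none of the gene lists, were picked after their values were seen. Casq2, which encodes the cardiac and slow-muscle calsequestrin that stores calcium, stood at 382.2 and 284.6 at day 7 against 140.7, 137.5 and 163.5 at day 1 (1.02 ± 0.14 (SE, adjusted p = 0.000971)). Agfg1, which encodes a protein of endosomal traffic, fell to 760.1 and 738.6 at day 7, against 1245, 1397 and 1144 at day 1 (-0.72 ± 0.09 (SE, adjusted p = 0.000454)), with 1 other probe set past the threshold at -0.56 (adjusted p = 0.0045). Its remaining 3 did not pass, at -0.41, -0.30 and -0.18 (adjusted p = 0.0714, 0.279 and 0.657). Cys1, the gene of cystin, a protein of primary cilia, was at 133.5 and 140.1 at day 7 against 320.1, 306.8 and 321.4 at day 1 (-1.04 ± 0.13 (SE, adjusted p = 0.000441)). All 3 calls held with each of the 5 arrays left out in turn. Among 19 tested cholesterol synthesis genes 1 rose in limma, Mvk (0.41, adjusted p = 0.0431), which is 5.26% against 3.15% of all genes. At an unadjusted p under 0.05, 7 in all were higher and 0 lower, beside 9.11% and 9.66% of all genes. The list median was 0.23 against -0.01 over all genes. The summed intensity of the 19 genes was 19293 and 18485 at day 7 against 13890, 15500 and 16448 at day 1. At day 0 it was 21677, 24079 and 21325, so the day 1 arrays were the low ones. Against day 0, 0 of the 19 were higher at day 7 and 2 lower, beside 5.50% and 5.95% of all genes, with a median of -0.03.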
